A study of Mus musculus with 74 samples.

Results

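The Smc1a knockdown in mouse blood progenitors was read in 5 RNA-seq libraries, 2 with a hairpin against Smc1a (shSmc1a) and 3 with a hairpin against luciferase (Luc), the control. They were taken by their labels from the 15 RNA-seq libraries of a series of 74 samples. All 5 came from HPC-7, a mouse line of haematopoietic stem and progenitor cells (HPC) that grows in stem cell factor, here 100 ng/ul. Every library, controls included, carried an inducible short hairpin RNA that doxycycline switched on for 72 h. Libraries with hairpins against Rad21 (shRad21) and Stag2 (shStag2), 3 each and treated alike, served for comparison. So did 2 Luc libraries, written Ery Luc, whose cells then received erythropoietin (EPO, 4 U/l) for 48 h while stem cell factor was cut to 20 ng/ul. The word "inhibitor" stands in every HPC title without an explanation, and is absent from the Ery Luc titles. Ery Luc thus differs from HPC Luc in EPO, in stem cell factor and in this word. Their parts cannot be told apart, and "after EPO" or "EPO treatment" below stands for all of them together. Whether numbered libraries were separate cultures or used different hairpins is not in the labels. The p-values below measure only how far these libraries spread, and that spread may be technical.

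Cohesin is a ring-shaped protein complex that holds sister chromatids together and folds chromosomes into loops. Smc1a encodes one of the long arms of the ring, Rad21 the subunit that closes it, and Stag2 one of the alternative subunits that sit on it. A loss of Smc1a or Rad21 therefore strikes the ring itself, whereas a loss of Stag2 leaves cells with the other Stag subunit. Mutations in these genes occur in myeloid leukaemia, and cohesin is studied in progenitors for its part in their maintenance and differentiation.

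The features counted were 55943 transcript identifiers, and none of them matched an entry in the 4 reference tables used here. Transcripts are therefore described by identifier or by rank, and levels of Smc1a, of markers of progenitors and of other cell types were not analysed here. The depth of the knockdown and the cell type named in the labels thus could not be checked. In bulk RNA, fewer cells of a type and less RNA per cell cannot be told apart. No source used here gives the strand or counting settings, and values of transcripts that overlap or nearly match another are uncertain for that reason.

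The libraries held similar amounts of data, with 26044961 and 22981285 assigned reads in shSmc1a and 22395582 to 31281941 in Luc. They did not differ by hairpin alone. Luc replicate 3 stood apart from its group: the chi-square per degree of freedom was 4.96 between Luc replicates 1 and 2, but 13.7 and 17.0 between those and replicate 3. Between the shSmc1a libraries it was 4.88. In a principal component analysis of the 11 HPC libraries, the first component (21.4% of the variance) set replicate 3 of Luc, shStag2 and shRad21 above replicates 1 and 2 of the same hairpin in all 3 cases. Both shSmc1a libraries, at 24.6 and 24.5, lay beside shStag2 replicate 3 at 20.2 and shRad21 replicate 3 at 32.9. Luc replicate 3 lay far from these, at -8.29. It was near replicates 1 and 2 of shStag2 (-9.54 and -10.0) and of shRad21 (-7.85 and -2.45). The first component thus differed by hairpin as well as by replicate number. Below, replicate 3 of Luc, shStag2 and shRad21 together with both shSmc1a libraries is called the second library set, and the other HPC libraries the first. The labels name no such sets. No shSmc1a library lies in the first set. The called transcripts as a whole are therefore given against Luc replicate 3 and against Luc replicates 1 and 2. Transcripts named by identifier are given against all Luc libraries together and against Luc replicate 3 alone. Tests against Luc replicate 3 alone come from a pair of fits. The planned fit counts the difference between sets within shStag2 and shRad21 as spread between replicates. The own-group fit, added after the data had been seen, makes each HPC library numbered 3 a group of its own.

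**Figure D1:**
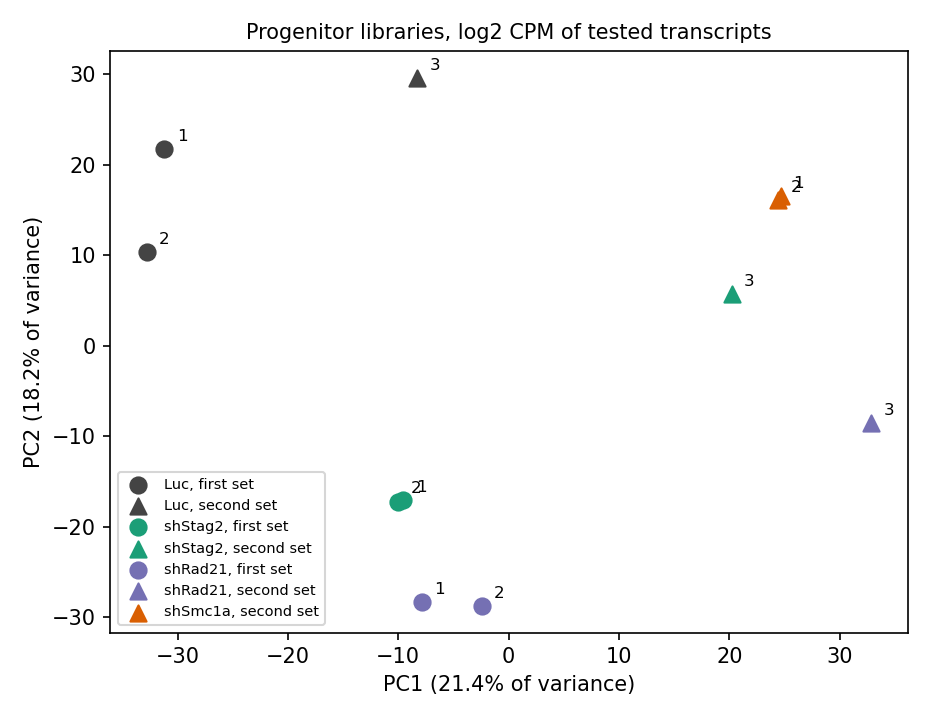
Principal components 1 and 2 of log2 CPM (counts scaled to library size) in the 11 HPC libraries, with the share of variance on each axis. Colours mark the hairpin, triangles the second library set, circles the first, and digits the replicate number. Both shSmc1a libraries fall at 24.6 and 24.5 on component 1, far from Luc replicates 1 and 2 at -31.2 and -32.8. They are also far from Luc replicate 3, at -8.29.

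The shSmc1a libraries differed from Luc in a small share of transcripts, in both directions and mostly by modest amounts. Of 18065 transcripts tested, 782 differed from Luc at an adjusted p under 0.05 (4.33%), 425 of them higher (2.35%) and 357 lower (1.98%), by edgeR's quasi-likelihood test with Benjamini-Hochberg adjustment. Such transcripts are called rises and falls below. The median rise was 0.67 on the log2 scale and the median fall was -0.47, beside a median of 0.00 over all transcripts tested. Changes under 1.5-fold made up 404 of the 782 (51.7%), and 192 changed at least 2-fold (1.06% of those tested), 114 up and 78 down. The 59 changes of 4-fold or more were 25 rises and 34 falls. The count depends on single libraries: it was 407, 487 and 1035 without Luc replicate 1, 2 and 3, and 229 and 303 without shSmc1a replicate 1 and 2. At an unadjusted p under 0.05 there were 2993 transcripts.

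The size of the change went with the level of the transcript. Levels are in counts relative to library size, as CPM, scaled between libraries by edgeR's TMM factors and not corrected for transcript length. Among transcripts with a mean of 100 CPM or more, 10.6% were called, 148 in all, but only 2 of these changed at least 2-fold. Among those between 10 and 100 CPM, 7.89% were called, with a median size of 0.47 on the log2 scale. The share fell to 3.14% between 1 and 10 CPM and to 0.936% under 1 CPM, where all 52 called transcripts changed at least 2-fold. Small changes can be called only at high counts, so these shares describe the precision of the data as well as the change. The 782 transcripts together held 5.24% of the assigned reads. No transcript went from at most 0.1 CPM in every library of one group to at least 1 CPM in every library of the other, in either direction. With the lower limit at 0.25 CPM, 2 transcripts went from at most 0.25 CPM in all 3 Luc libraries to at least 1 CPM in both shSmc1a libraries, and 3 went the other way.

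The transcripts described next are the largest rises and falls among those with a mean of at least 1 CPM in Luc or shSmc1a. Some called transcripts under that level had larger fitted falls than the second one, up to -5.89. The largest fall was that of transcript ENSMUST00000023934.6. It stood at 6.30, 5.26 and 7.06 CPM in Luc replicates 1 to 3 and at 0.114 and 0.043 CPM in the shSmc1a libraries, which are 3 reads and 1 read. All 3 Luc libraries were far above both shSmc1a libraries. The fold change was -6.19 (SE 0.42) on the log2 scale, with an edgeR adjusted p of 3.94e-08. From the summed reads, Luc was 77.8 times as high, with an exact 95% interval of 30.2 to 287 that covers counting error only. Against Luc replicate 3 alone the log2 fold change was -6.37 (edgeR adjusted p 1.58e-07 in the planned and 2.04e-17 in the own-group fit). It was low in the other knockdowns too, with a mean of 0.167 ± 0.104 CPM (SD, n = 3) in shRad21 and 0.201 ± 0.189 CPM (SD, n = 3) in shStag2, beside 0.079 ± 0.050 CPM (SD, n = 2) in shSmc1a. In Ery Luc it reached 1546 ± 33.5 CPM (SD, n = 2), so ENSMUST00000023934.6 was high in EPO-treated cells, low in Luc progenitors and nearly unread in shSmc1a progenitors.

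The second fall by this rule, ENSMUST00000107756.3, had no such level after EPO. It was read at 1.72, 1.48 and 0.769 CPM in Luc and in 1 read in each shSmc1a library, at 0.038 and 0.043 CPM. The groups did not overlap, and Luc replicate 3 was the lowest of the Luc libraries. The log2 fold change was -4.86 (SE 0.89, edgeR adjusted p 0.0032). By reads, Luc was 31.4 times as high (exact 95% interval 8.47 to 263). Against Luc replicate 3 alone it was -4.10 on the log2 scale, with an edgeR adjusted p of 0.058 in the planned fit and 0.00457 in the own-group fit. Ery Luc held 0.461 ± 0.029 CPM (SD, n = 2).

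The largest rise by this rule, ENSMUST00000089085.7, was almost unread in controls, with 1 read in Luc replicate 1 and none in the others, and had 35 and 17 reads in the shSmc1a libraries (1.33 and 0.732 CPM). The fitted log2 fold change of 5.87 (SE 1.07, edgeR adjusted p 0.00329) depends on the small count added for fitting. The ratio of reads was 79.4 with an exact 95% interval of 13.6 to 3195. Both shSmc1a libraries lay above every other HPC library, the next being shStag2 replicate 3 at 0.517 CPM. Replicates 1 and 2 of shStag2 held 0.065 and 0.027 CPM, so within that knockdown too the library of the second set was the highest. The fitted log2 fold change from Luc replicate 3 alone was 7.83, with an edgeR adjusted p of 0.061 in the planned fit and 0.000784 in the own-group fit.

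ENSMUST00000166232.2, the second largest rise, had 3 reads in Luc replicate 3, none in Luc replicates 1 and 2, and 29 reads in each shSmc1a library (1.10 and 1.25 CPM). Its fitted log2 fold change was 4.75 (SE 0.96, edgeR adjusted p 0.00705) and its ratio of reads 29.5 (exact 95% interval 9.61 to 147). The libraries numbered 3 were again the highest of their groups, at 0.1004 CPM in Luc, 0.388 CPM in shStag2 and 0.504 CPM in shRad21. From Luc replicate 3 alone it differed by a fitted log2 fold change of 3.49, with an edgeR adjusted p of 0.194 in the planned fit and 0.00768 in the own-group fit. Thus all 4 transcripts had a large change against Luc replicate 3 as well. Their selection favours this, since it required both shSmc1a libraries to lie beyond every Luc library, replicate 3 among them. The planned and the own-group fit differed in which of them passed.

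**Figure D2:**
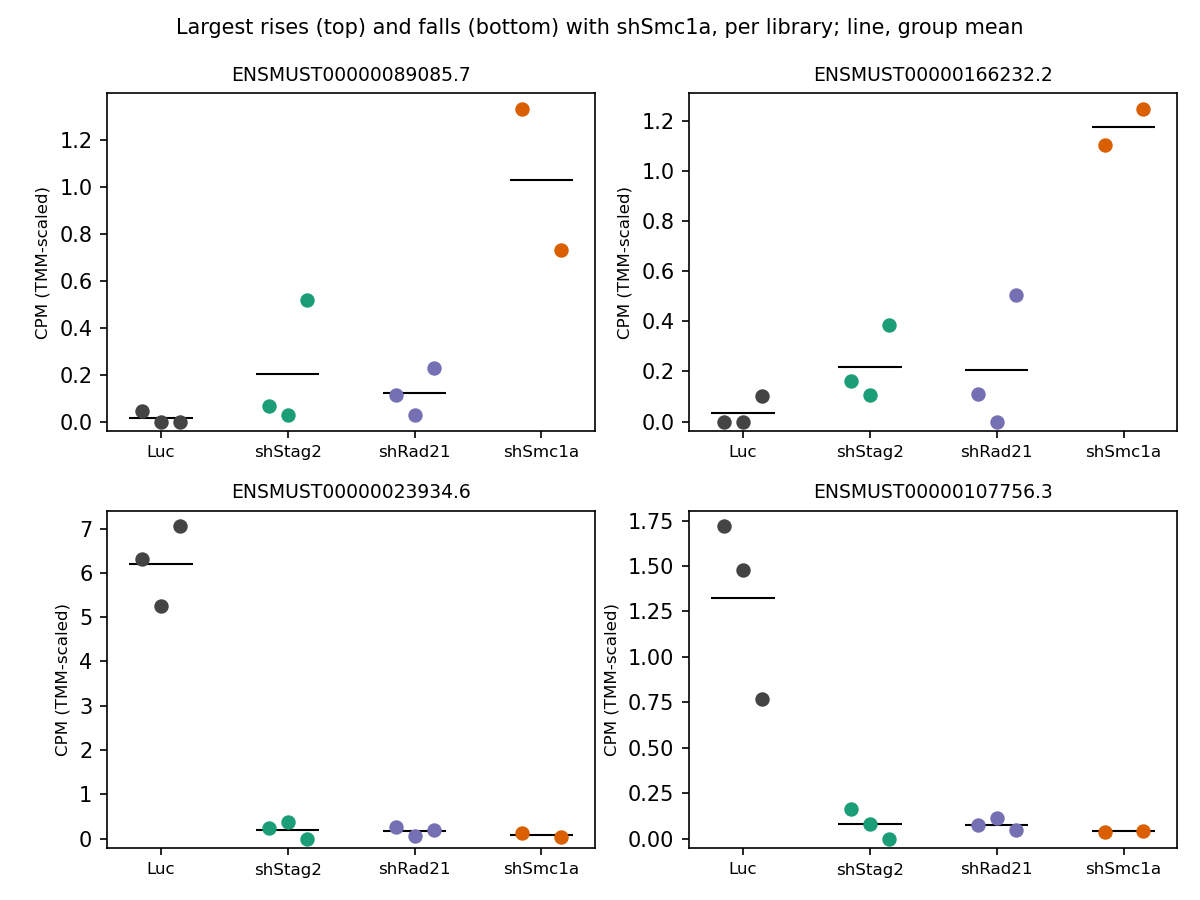
Level in CPM of the transcripts with the largest rises (upper row) and falls (lower row) in each HPC library, replicates in order from left to right, with the group mean as a line. For both rises, replicate 3 of shStag2 and shRad21 lies above replicates 1 and 2 of its group; for both falls, all shStag2, shRad21 and shSmc1a libraries lie far under Luc.

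Most of the 15 largest falls were also called lower than Luc in the other cohesin knockdowns. They were ranked by log2 fold change among the 340 falls with a mean of at least 1 CPM in either group, and ranged from -6.19 to -2.61. Set directly against shRad21, none of the 15 was called lower in shSmc1a (edgeR adjusted p under 0.05), and 1 was called lower than in shStag2. Most are at few reads in the knockdowns, where differences of some size are not detectable. The fall ranked 9, for instance, had a mean of 0.119 CPM in shSmc1a, 0.280 CPM in shRad21 and 0.477 CPM in shStag2, and was not called in shStag2 against Luc (edgeR adjusted p 0.142). Each knockdown has its own values against the same Luc libraries: all 15 were called lower in shRad21 (3.95% of all transcripts were) and 13 in shStag2 (1.45% were). These comparisons share their controls, so the counts are not independent. With Luc replicate 3 alone as control, 12 of the 15 were called lower in shSmc1a in the planned fit and all 15 in the own-group fit. All 15 were called with library set as a term in the model, which estimates the difference between sets from Luc, shStag2 and shRad21.

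The falls ranked 15, 4 and 7, which had the highest counts, show single libraries. The fall ranked 15 had 62.2, 64.7 and 83.3 CPM in Luc and 13.3 and 9.68 CPM in shSmc1a. It stood at 9.87, 10.8 and 8.98 CPM in shRad21 and at 18.3, 16.4 and 18.9 CPM in shStag2. The shSmc1a libraries thus lay within or just above the range of shRad21 and under all shStag2 libraries, and this was the transcript called lower than in shStag2 (edgeR adjusted p 0.0192). The fall ranked 4 went from 14.99, 14.4 and 12.4 CPM in Luc to 1.29 and 1.205 CPM in shSmc1a, against 0.916 to 1.67 CPM in shRad21 and 1.47 to 1.85 CPM in shStag2. There all 8 knockdown libraries were far under the 3 Luc libraries. The fall ranked 7 went from 26.3, 24.3 and 15.8 CPM to 2.70 and 1.76 CPM. Its lowest library within Luc, shStag2 and shRad21 was in each case replicate 3, at 15.8, 2.84 and 0.595 CPM.

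Of the 15 falls, 4 were at least 10 times as high in Ery Luc as in the HPC Luc libraries. Besides ENSMUST00000023934.6 these were the falls ranked 8, 10 and 11. The fall ranked 8 had a mean of 2.17 ± 0.286 CPM (SD, n = 3) in HPC Luc, 0.219 ± 0.067 CPM (SD, n = 2) in shSmc1a and 121 CPM in Ery Luc. The falls ranked 10 and 11 stood at 1.74 and 2.37 CPM in HPC Luc, 0.208 and 0.308 CPM in shSmc1a, and 57.9 and 108 CPM in Ery Luc. In each, both shSmc1a libraries were under all Luc libraries, which the selection of the ranked transcripts required. Of the 15 largest rises, 1 was at least 10 times as high in Ery Luc as in HPC Luc.

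The 15 largest rises, from 2.20 to 5.87 on the log2 scale among 412 with a mean of at least 1 CPM in either group, were less uniform. In 12 of them the Luc mean was under 1 CPM. Against Luc replicate 3 alone 4 were called in the planned fit and 14 in the own-group fit, and 14 were called with library set as a term. Against shRad21 7 were higher in shSmc1a (1.54% of all transcripts were), against shStag2 also 7 (1.16% were), and 6 were higher than in both. The 15 were ranked with the same shSmc1a libraries, which favours such calls. The values against Luc called 5 of the 15 higher in shRad21 (3.91% of all transcripts were) and 2 in shStag2 (1.71% were).

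Among these rises, the one ranked 15 differed from every other progenitor group. It was read at 1.06, 0.912 and 1.20 CPM in Luc and at 6.32 and 3.48 CPM in shSmc1a. In shRad21 it stood at 0.447 to 0.641 CPM and in shStag2 at 0.348 to 0.620 CPM, so these libraries lay under Luc while shSmc1a lay above it. The log2 difference of shSmc1a was 3.17 from shRad21 and 3.33 from shStag2, and 2.03 from Luc replicate 3 alone (edgeR adjusted p 0.0052 in the planned fit). The rise ranked 11 was shared instead, with 0.705, 0.912 and 0.435 CPM in Luc and 3.54 and 3.06 CPM in shSmc1a. In shRad21 it had 3.65 to 5.36 CPM and in shStag2 2.80 to 3.46 CPM. The rise ranked 6 differed between library sets as well: it went from 3.57, 3.39 and 9.67 CPM in Luc to 36.8 and 37.0 CPM in shSmc1a, while shRad21 had 9.20, 10.5 and 53.9 CPM and shStag2 6.98, 5.60 and 23.0 CPM. In that transcript the highest Luc, shRad21 and shStag2 library was in each case replicate 3, and both shSmc1a libraries lay above Luc replicate 3. The log2 difference from that library was 1.93, with an edgeR adjusted p of 0.369 in the planned fit and 4.14e-13 in the own-group fit. With library set as a term it was 1.67 (edgeR adjusted p 9.52e-08).

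**Figure D3:**
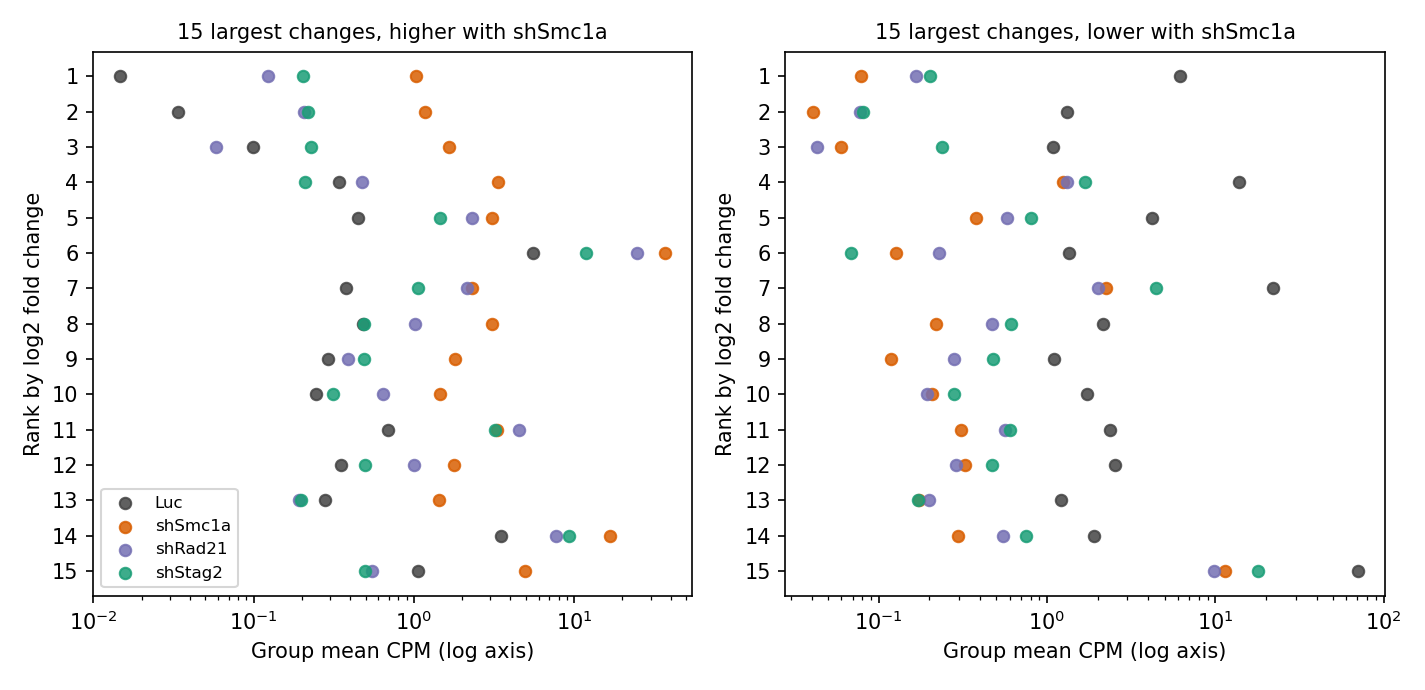
Mean CPM (log axis) in Luc, shSmc1a, shRad21 and shStag2 progenitors for the 15 largest rises and the 15 largest falls with shSmc1a, ordered by rank. In the falls the means of all 3 knockdowns lie under Luc; in the rises shSmc1a is often alone on the right, and in 12 of 15 the Luc mean is under 1.

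How many transcripts passed changed with the choice and number of control libraries, but the direction of those called did not. All 782 lay in the same direction against Luc replicate 3 alone as against Luc replicates 1 and 2, as did 66.2% of all transcripts tested. In all 782 both shSmc1a libraries lay beyond all 3 Luc libraries, as in 33% of all transcripts. Where both shSmc1a libraries lie beyond all 3 Luc libraries, the direction is the same against any part of Luc. The shared direction of the 782 therefore follows from the lack of overlap, which a call against all 3 libraries favours. The median rise was 0.63 against replicate 3 and 0.69 against replicates 1 and 2, and the median fall -0.46 and -0.48. In 471 of the 782 (60.2%) the change was the smaller one against replicate 3.

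Against Luc replicate 3 alone, 268 transcripts were called (1.48%), including 224 of the 782, of which 111 were rises and 113 falls. Against Luc replicates 1 and 2 there were 1023 (5.66%), including 666 of the 782. With library set as a term there were 965 (5.34%), of which 637 were among the 782 and none of the 782 turned direction, with medians of 0.57 for the rises and -0.40 for the falls. Called in all 3 of these ways were 201 of the 782, 99 rises and 102 falls. The biological coefficient of variation was 0.09 in the fit of 6 groups, 0.059 with library set as a term and 0.049 in the own-group fit. The own-group fit called 1168 transcripts against Luc replicate 3 (6.47%), including 607 of the 782, and 2697 against Luc replicates 1 and 2 (14.9%), including 775 of the 782. Luc replicate 3 is 1 library, taken to vary like the other groups. Having 1 control library in place of 2 by itself lowers the count. In these counts the number of controls and the choice of control therefore cannot be told apart. With 2 Luc libraries each time, the 6-group fit called 407, 487 and 1035 transcripts without Luc replicate 1, 2 and 3.

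**Figure D4:**
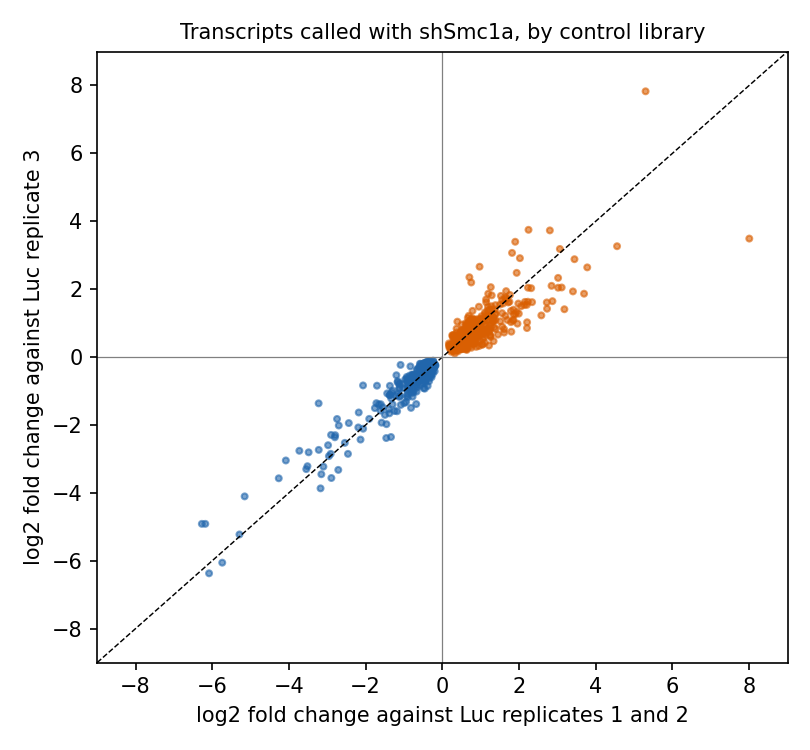
Log2 fold change of the 782 transcripts called with shSmc1a against Luc replicates 1 and 2 (horizontal) and against Luc replicate 3 alone (vertical), orange for rises and blue for falls, with the line of equal change dashed. All points lie at the lower left or the upper right, and 60.2% have the smaller change against replicate 3.

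The difference between library sets was also measured without any library of the shSmc1a comparison, as replicate 3 minus replicates 1 and 2 in shStag2 and shRad21. It called 2776 transcripts (15.4%), 1371 higher (7.59%) and 1405 lower (7.78%) in the second set. In Luc, which this measure does not use, 82.6% of the higher and 82.3% of the lower list had the same sign between replicate 3 and replicates 1 and 2, beside 49.6% and 50.3% of all transcripts. By itself the contrast of Luc replicate 3 with replicates 1 and 2 called 29 transcripts (0.161%).

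The transcripts that rose with shSmc1a were mostly those higher in the second set. Of the 425 rises, 340 (80.0%) were higher there in shStag2 and shRad21, and of the 357 falls 58 (16.2%) were, beside 49.2% of all transcripts. Called higher in that set were 157 of the rises and 6 of the falls, and called lower 10 of the rises and 117 of the falls. The median difference between sets was 0.19 on the log2 scale in the rises and -0.14 in the falls, smaller than the medians of 0.67 and -0.47 against Luc. From shStag2 replicate 3 alone the shares were 70.4% and 30.3%, and from shRad21 replicate 3 alone 83.8% and 13.4%. Against Luc replicate 3, with its own group for each library 3, 65.3% of the 571 rises and 33.3% of the 597 falls were higher in the second set, so the leaning was smaller there and still present. What part of the shSmc1a values this difference makes up was not tested.

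**Figure D5:**
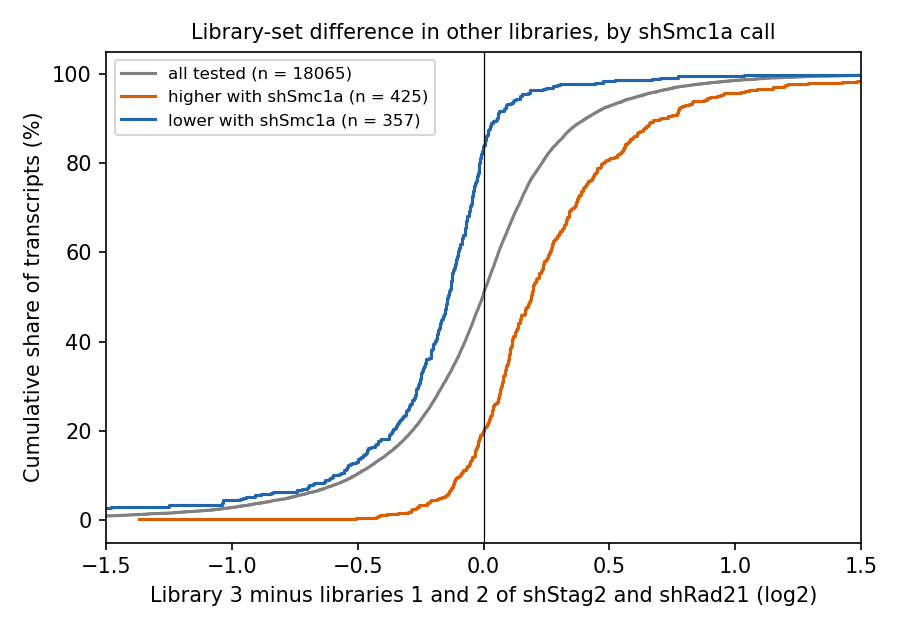
Cumulative share of transcripts by the log2 difference between replicate 3 and replicates 1 and 2 of shStag2 and shRad21, for the 425 rises, the 357 falls and all 18065 transcripts tested; the axis is limited to the range from -1.5 to 1.5. The curve of the rises is shifted to the right and that of the falls to the left of all transcripts.

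Set directly against the other knockdowns, shSmc1a differed from each at a small share of transcripts. Against shRad21, edgeR called 497 (2.75%), 279 higher (1.54%) and 218 lower (1.21%) in shSmc1a. Against shStag2 it called 376 (2.08%), 210 higher (1.16%) and 166 lower (0.919%). With library set as a term these were 675 (3.74%) and 510 (2.82%). The counts moved with single libraries. Against shRad21 they were 65 and 161 without shSmc1a replicate 1 and 2, and 245, 133 and 1578 without shRad21 replicate 1, 2 and 3. Against shStag2 they were 71 and 141 without shSmc1a replicate 1 and 2, and 125, 170 and 668 without shStag2 replicate 1, 2 and 3. Leaving out a replicate 3 thus raised the count in both comparisons, and leaving out any other of these libraries lowered it.

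Of the 425 rises, 83 were higher than in shRad21 (1.54% of all transcripts were) and 92 higher than in shStag2 (1.16% were). Higher than in both were 58, 36 of these 58 also with library set as a term. Of the 357 falls, 56 were lower than in shRad21 (1.21% of all transcripts were) and 79 lower than in shStag2 (0.919% were). Lower than in both were 44, 34 of these 44 also with library set as a term. The rises and falls were selected with the same shSmc1a libraries, which favours such calls. The share of all transcripts that differed from both was not counted, so the 58 and 44 have no background to be set against. For these 102 transcripts the difference from both other knockdowns was itself tested. For the others a p above the threshold does not show equal levels. Over the 425 rises the median log2 change against Luc was 0.67 in shSmc1a, 0.43 in shRad21 and 0.32 in shStag2, and over the 357 falls -0.47, -0.28 and -0.20. The controls are the same Luc libraries, and the transcripts were selected on shSmc1a, whose medians are therefore the larger ones by selection.

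To set the knockdowns side by side without a shared library, shSmc1a was taken against Luc replicate 3, and the others as replicates 1 and 2 against Luc replicates 1 and 2. Transcripts that moved with loss of Stag2 or Rad21 tended to move the same way with shSmc1a. In that comparison shStag2 had 1186 called transcripts (6.57%), 588 higher and 598 lower. Of these, 78.7% of the higher ones were higher and 79.4% of the lower ones lower with shSmc1a, beside 51.4% and 48.5% of all transcripts. Called in the same direction were 197 (33.5%) and 199 (33.3%), beside 3.16% and 3.3% of all transcripts. Called in the opposite direction were 14 of the 588 and 18 of the 598. Of all transcripts, 3.3% were called lower and 3.16% higher, so the opposite calls were not far from the share of all transcripts. As shares of the 571 rises and 597 falls against Luc replicate 3, the transcripts called in the same direction made up 34.5% and 33.3%.

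The same held for shRad21, with longer lists. Of its 2271 called transcripts (12.6%), 76.0% of the 1023 higher ones and 77.4% of the 1248 lower ones had the same direction with shSmc1a. Called in the same direction were 255 (24.9%) and 266 (21.3%), beside 3.16% and 3.3% of all transcripts. Those called in the same direction were 44.7% of the shSmc1a rises and 44.6% of its falls. Called in the opposite direction were 32 of the 1023 and 26 of the 1248, beside 3.3% of all transcripts called lower and 3.16% called higher. With shSmc1a replicate 1 or 2 alone, the shares in the same direction ran from 75.3% to 79.3% for the shStag2 lists and from 71.7% to 76.3% for the shRad21 lists. The changes were smaller in shSmc1a: the median of the shStag2 lists was 0.48 and -0.33 on the log2 scale in shStag2 itself and 0.25 and -0.17 in shSmc1a. Lists selected on one comparison show the larger values there. All libraries on one side of this setting belong to the first set and all on the other side to the second.

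Erythroid induction of control cells was compared in the same way. EPO with less stem cell factor called 8166 transcripts between Ery Luc and Luc replicates 1 and 2 (45.2%), 4238 higher (23.5%) and 3928 lower (21.7%). With shSmc1a against Luc replicate 3, 39.1% of the transcripts higher after EPO were higher and 41.0% of those lower after EPO were lower, beside 51.4% and 48.5% of all transcripts. With shSmc1a replicate 1 or 2 alone the shares were 38.8% and 41.4% for the first list and 40.9% and 43.6% for the second. More of these transcripts thus lay against the direction of EPO treatment than with it, by small amounts: the median differences of shSmc1a from Luc replicate 3 were -0.04 and 0.07 on the log2 scale. The library sets differed along the same lists, with 67.8% of the transcripts higher after EPO and 32.9% of those lower after EPO being higher in the second set of shStag2 and shRad21. That is the direction of EPO treatment and the reverse of the shSmc1a values, and its part in them was not tested.

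Among the transcripts that changed with shSmc1a against Luc replicate 3, those that also differed between Ery Luc and HPC Luc were common in both directions. Of the 597 falls, 278 (46.6%) were higher and 141 (23.6%) lower after EPO. Of the 571 rises, 220 (38.5%) were higher and 180 (31.5%) lower after EPO. Transcripts with high counts are called more readily in both comparisons, and the shares of all transcripts, 23.5% and 21.7%, include those with low counts.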

How the data were processed

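The authors deposited raw read counts per transcript identifier, 1 table per library. The submitters' processing notes name STAR 2.4.0, HTSeq and the mouse build mm10. For the annotation release, strand and counting settings, nothing is given in the sources used here. The 5 summary lines of each table, which name no transcript, were left out. Among the RNA-seq libraries used here, reads in no feature came to 9.19% to 18.0% and ambiguous reads to 24.2% to 26.9% of the counted total.

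Transcripts were kept by edgeR's filterByExpr, scaled by TMM and fitted together (15 libraries, 6 groups) with the quasi-likelihood functions of edgeR 4.0.16 under R 4.3.3. Benjamini-Hochberg adjustment ran over all 18065 transcripts tested, with a threshold of 0.05. Standard errors were taken from the fold change and its F statistic. A 7-group fit kept Luc replicate 3 apart, and another fit added library set as a term. The scripts were tested on simulated data.

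Named transcripts were the 2 largest rises and 2 largest falls with a group mean of at least 1 CPM, both shSmc1a libraries beyond all Luc libraries and the same direction against both sets of controls. The comparison, its lists and its tests were chosen with earlier results of these data known. The gene lists, the check of Smc1a and of cell type markers, and promoter sequences need symbols and were not used. Promoter capture and chromatin samples were not analysed here. Alternatives were another normalization, filter, tool (DESeq2 1.42.0), choice of libraries, a replicate block, and leaving out each library.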

Additional observations from a re-analysis of the deposited data

How the results depend on the processing

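None of the alternatives turned the direction of a transcript called in both fits or of the 4 named transcripts. For shSmc1a against Luc, 782 calls became 801 with another normalization (RLE), 786 with the most counted identifier left out of library sizes, 836 with a filter at 1 CPM, 718 from only the 5 libraries, 965 with library set as a term, 960 with DESeq2 and 1163 against Luc replicate 3 with each library 3 as its own group. They became 1297 with no filter on low counts, 510 from only the 11 HPC libraries, 205 with Luc replicate 3 alone as control, and 2687 against Luc replicates 1 and 2 with each library 3 as its own group. Both alternatives with each library 3 as its own group were chosen after seeing the data. Leaving out 1 library gave 229 to 1035. Against shRad21, 497 calls became 1204 with no filter and 744 with DESeq2, and 65 to 1578 without 1 library. Against shStag2, 376 became 943 with no filter and 542 with DESeq2, and 71 to 668 without 1 library. The cause of these shifts was not tested.

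With the replicate number as a block, the calls were 2602 against Luc (781 of the 782 among them), 2892 against shRad21 and 2105 against shStag2, so that shRad21 then had more calls than Luc. Over transcripts, the difference of replicate 1 from 2 in Luc and in shSmc1a correlated at -0.0188, and the libraries share only a number. The block also absorbs the difference of replicate 3 from the rest.

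ENSMUST00000023934.6 passed in all 17 alternatives (-7.04 to -5.72). With Luc replicate 3 alone as control, the log2 change was 7.86 for ENSMUST00000089085.7, 3.49 for ENSMUST00000166232.2 and -4.11 for ENSMUST00000107756.3, with edgeR adjusted p of 0.0868, 0.219 and 0.111. Against the same library with each library 3 as its own group and its own filter, ENSMUST00000089085.7, ENSMUST00000166232.2 and ENSMUST00000107756.3 passed at 0.0011, 0.00846 and 0.00488. Without shSmc1a replicate 1 it was 0.0643 for ENSMUST00000089085.7 and 0.0785 for ENSMUST00000107756.3. Without shSmc1a replicate 2 it was 0.0517 for ENSMUST00000166232.2 and 0.0581 for ENSMUST00000107756.3. ENSMUST00000089085.7 was not tested with the filter at 1 CPM. DESeq2 gave no adjusted p for these 3 transcripts, so it is not counted for them. Counts summed per gene were not run, since no identifier matched a symbol.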
